A study of Sus scrofa with 6 samples.

Results

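The predicted microRNA unconservative_AEMK02000452.1_1853219 was the second most abundant of the 898 microRNAs (miRNAs) listed for the skin of Xiang pigs, a miniature breed from China, and the most abundant of the 618 that carry a predicted identifier instead of a porcine miRBase-style name. It is 1 of those 898 rows and was chosen by its measured level, the mean over all 6 libraries, so that level is given as a description. The values are RPM, that is reads of a miRNA scaled to a total of 1000000 listed miRNA reads per library. The reads behind them, 6454685 to 10165949 per library, could be worked back. Small RNA was sequenced from white skin (libraries S02, S06 and S07) and from black skin (S03, S04 and S05). All 6 samples were of the Xiang strain, freed of hair and frozen in the reagent RNAwait, and skin colour is the 1 property by which the labels set the groups apart. No animal, sex, age, body site or batch is given there, so p-values reflect how far these samples lie apart, for which technical reasons are possible. The stated aim of the series is to find RNAs that affect melanin in this breed. The row was not chosen for its contrast between skin colours, although that contrast was known from earlier work on the same table.

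A miRNA is a short RNA that is cut from a hairpin-shaped precursor and loaded into an Argonaute protein. It lowers the output of messenger RNAs that pair with its seed, a stretch near its 5′ end. Predicted miRNAs are called from stacks of small RNA reads that map to a place in the genome where the RNA could fold into such a hairpin, and they carry no name of a reference set. The table gives no sequence for them, so whether a predicted row, this one included, is a miRNA already known under a name was not tested. AEMK02000452.1 is a scaffold of the pig assembly that is placed on no chromosome. What the final number and the word unconservative stand for is not given in the sources used here.

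White skin gave 149953 RPM of the predicted miRNA in S02, 144226 RPM in S06 and 116083 RPM in S07. In black skin it measured 85590 RPM in S03, 101895 RPM in S04 and 83535 RPM in S05. Every white library was above every black one, and the lowest white library exceeded the highest black one 1.14-fold. Across the 6 libraries the highest value was 1.80 times the lowest. White skin averaged 136754 ± 18130 RPM and black skin 90340 ± 10059 RPM (SD, n = 3 each).

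These levels rest on 662969 to 1180089 reads per library, so counting error is small beside the spread between libraries. The row held 14.995% of the listed reads in S02 (exact Clopper-Pearson 95% interval 14.97 to 15.02%), 14.4% in S06 and 11.6% in S07. Its share was 8.56% in S03, 10.2% in S04 and 8.35% in S05 (8.335 to 8.372%). The group means were 13.7 ± 1.81% and 9.03 ± 1.01% (SD, n = 3), a difference of -4.64 percentage points. A two-sided exact permutation test gave p = 0.1, and no smaller value can come from 3 against 3 libraries.

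**Figure D1:**
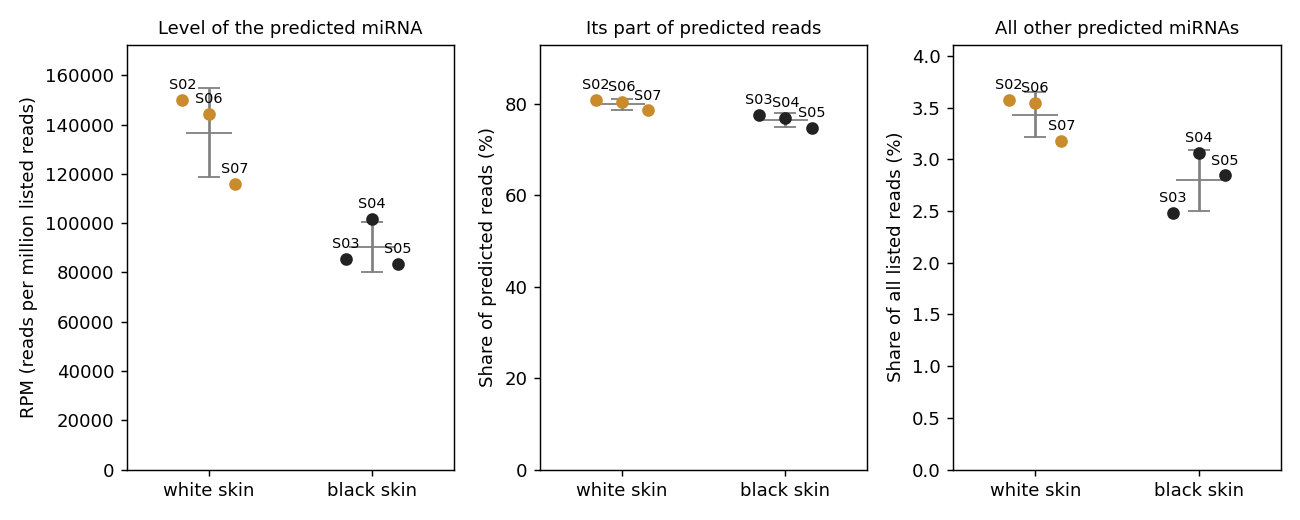
Level of the predicted miRNA in RPM (left), its share of the reads of all predicted miRNAs (middle) and the share of all listed reads held by every other predicted miRNA together (right), for 3 white and 3 black skin libraries. Points are libraries, and the grey bar and whiskers are the group mean and SD. White libraries lie at 116083 to 149953 RPM and black ones at 83535 to 101895 RPM.

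The lower level in black skin did not pass the test across the table. On the log2(RPM + 1) scale the difference, black minus white, was -0.59 with a standard error of 0.16, or 1.51-fold higher in white skin (limma with Benjamini-Hochberg adjustment over 454 tested miRNAs, adjusted p = 0.0629, unadjusted p = 0.00510, n = 3 per group). The 95% interval of the difference ran from -0.96 to -0.23 before adjustment, that is from 1.17-fold to 1.95-fold. As background, 7.05% of the tested miRNAs were called in either direction in the same fit, 3.96% higher and 3.08% lower in black skin. Without overlap between the groups and lower in black skin, as this row was, stood 13.9% of the tested miRNAs. Its difference was not large for the table, since 131 of the 454 tested miRNAs (28.9%) differed by more, while 35 had a smaller p.

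The side of the threshold depended on the setting. The adjusted p was under 0.05 with limma-voom on the recovered reads (0.0447), with TMM factors (0.0463), with no filter (0.0485) and with a filter of 10 RPM in 3 libraries (0.0473). It was above with edgeR (0.0547) and DESeq2 (0.124) on those reads. Those 3 tools called 6.83% (limma-voom), 6.61% (edgeR) and 11.7% (DESeq2) of the tested miRNAs. Without any 1 library the value stayed below 0, from -0.71 without S07 to -0.52 without S02, and none of these 6 fits passed (limma, adjusted p = 0.0535 to 0.185).

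The place of the predicted miRNA in the order of levels differed between libraries. It ranked 1 in S02 and 2 in S06 and S07, below ssc-miR-148a-3p in S06 by a ratio of 0.999 and below ssc-miR-21 in S07. In black skin it ranked 3 in S04 and S05 and 4 in S03. The miRNAs above it there were ssc-miR-148a-3p in all 3 libraries, with ssc-miR-21 in S03 and S05 and ssc-miR-27b-3p in S03 and S04. By group mean it was first in white and the fourth in black skin, just below ssc-miR-27b-3p at 93345 ± 11147 RPM (SD, n = 3).

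The neighbours in that order varied otherwise between libraries. ssc-miR-21, known from fibroblasts and injured tissue, measured 92618, 96844 and 163112 RPM in S02, S06 and S07, against 133150, 101434 and 159617 RPM in S03, S04 and S05. These groups overlapped (0.19, limma, adjusted p = 0.730), and S07 held the highest value, in contrast to the predicted miRNA, for which it was the lowest of the white libraries. The log2 ratio of the predicted miRNA to ssc-miR-21, which no scaling can change, averaged 0.26 ± 0.65 in white skin and -0.52 ± 0.48 in black (SD, n = 3), with overlap (difference -0.78, two-sided exact permutation p = 0.2).

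ssc-miR-148a-3p, which can target the pigment cell regulator MITF, measured 84720, 144299 and 69429 RPM in S02, S06 and S07, against 137453, 125136 and 119219 RPM in S03, S04 and S05 (0.42, limma, adjusted p = 0.327). Relative to it the predicted miRNA stood at 0.52 ± 0.45 on the log2 scale in white skin and at -0.50 ± 0.19 in black (SD, n = 3). These ratios did not overlap (difference -1.02, exact permutation p = 0.1, the smallest possible). Neither neighbour differed from the predicted miRNA in a constant direction, since each was above it in some libraries and below it in others.

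Differences of the other members of the 10 most abundant lay on both sides of 0. Of the 9 besides the predicted miRNA 2 rose in black skin and 7 did not pass, where 3.96% of all 454 tested miRNAs rose. The median difference of the 9 was 0.19, against 0.00 over all 454 tested. ssc-miR-143-3p, a miRNA of smooth muscle, rose by 1.29 (limma, adjusted p = 0.00314), and the endothelial ssc-miR-126-3p by 0.71 (0.0423), a call that 4 of 13 other settings kept. Lower means in black skin, without passing the test, belonged to ssc-let-7i (-0.53, limma, adjusted p = 0.150), which passed without S02 (0.0418), to ssc-let-7g (-0.31, 0.221), a member of the same proliferation-restraining family, and to ssc-miR-99a (-0.01, 0.971), whose value turned to 0.07 without S03, 0.05 without S05 and 0.11 without S02. ssc-miR-26a (0.53, 0.148, or 0.0237 without S02) and ssc-miR-27b-3p (0.10, 0.754) had higher means.

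**Figure D2:**
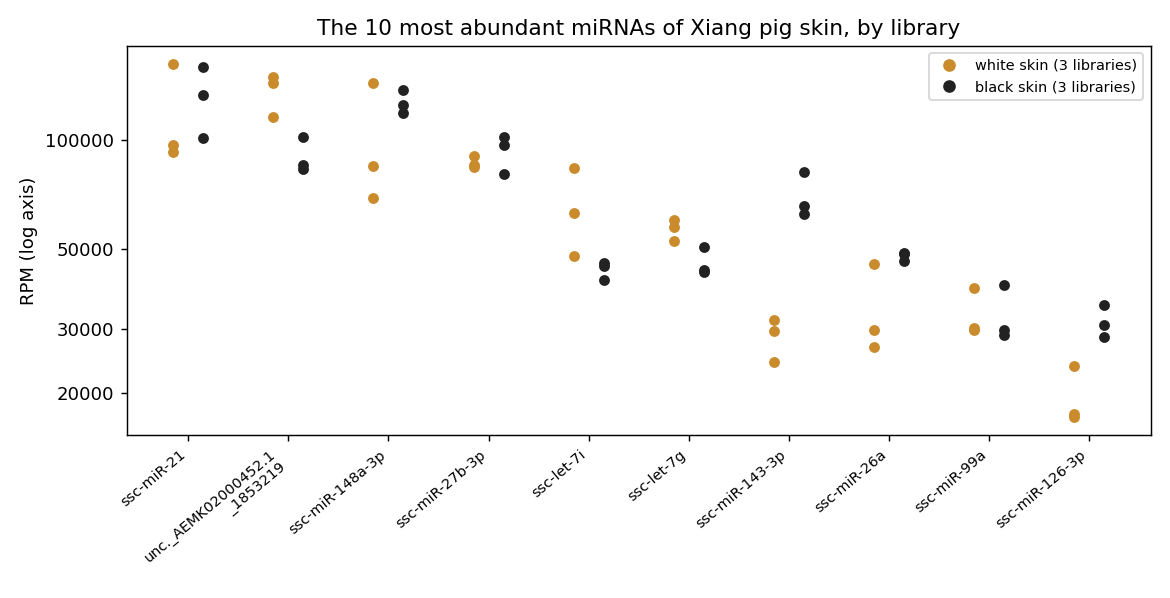
RPM of the 10 most abundant miRNAs on a log axis, ordered by their mean over the 6 libraries, with 1 point per library. The predicted miRNA, the second from the left, has its white libraries at 116083 to 149953 RPM above its black ones at 83535 to 101895 RPM, while ssc-miR-143-3p and ssc-miR-126-3p show the opposite order.

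The spread of the predicted miRNA within a group was moderate for its level. The coefficient of variation of its RPM was 13.3% in white and 11.14% in black skin. Among the other 9 of the 10 most abundant it ran from 3.81 to 39.8% in white and from 2.48 to 22.2% in black skin, and 2 and 5 of them varied less than the predicted miRNA. ssc-miR-148a-3p varied most in white skin and ssc-miR-21 in black skin.

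Among predicted miRNAs the row stood far above the rest. It was the highest of the 618 in 6 of 6 libraries, 7.92-fold (S05) to 13.0-fold (S02) above the next. On average it was 11.9 times as abundant as the runner-up, unconservative_15_1593718, at 9534 RPM, which marks the other side of the rule that chose it. Besides these 2, 3 predicted miRNAs averaged over 1000 RPM, and the median predicted miRNA averaged 0.622 RPM. The 4 next most abundant made up 84.8% of the predicted reads outside the row.

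Of all predicted reads the row held 80.8% in S02, 80.3% in S06 and 78.5% in S07, and 77.5% in S03, 76.9% in S04 and 74.6% in S05. White skin averaged 79.8 ± 1.19% and black skin 76.3 ± 1.54% (SD, n = 3; difference -3.51 points, exact permutation p = 0.1), with no overlap. The exact 95% binomial intervals ran from 80.69 to 80.82% in S02 and from 74.51 to 74.69% in S05. Predicted reads other than the row held 3.43 ± 0.22% of the listed reads of white skin and 2.80 ± 0.29% of those of black skin (SD, n = 3; -0.64 points, exact permutation p = 0.1), also with no overlap. Of the difference in the whole predicted share, from 17.1 to 11.8%, this 1 row made up 88.0%.

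The 5 most abundant other predicted miRNAs split into those that resembled the row and those that did not. unconservative_6_673431 measured 11553, 13546 and 9854 RPM in S02, S06 and S07, against 5286, 7470 and 6066 RPM in S03, S04 and S05. It fell in black skin, 1.86-fold (-0.90, standard error 0.19, limma, adjusted p = 0.0318), and lost this call without S03 (0.107), S05 (0.109) or S06 (0.116) and with limma without an intensity trend (0.0813). unconservative_5_628504 measured 6006, 7227 and 5523 RPM in S02, S06 and S07, against 3305, 4581 and 3617 RPM in S03, S04 and S05. Its groups did not overlap either, but the difference of -0.71 missed the threshold (adjusted p = 0.0532), which it passed in 7 of 13 other settings.

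In the remaining 3 the groups overlapped, and only unconservative_3_394243 had a lower mean in black skin. unconservative_15_1593718 averaged 9044 ± 1484 RPM in white skin and 10023 ± 897 RPM in black (SD, n = 3; 0.16, limma, adjusted p = 0.656). unconservative_6_673433, whose identifier differs from that of unconservative_6_673431 only in the final digit, gave 2786 ± 590 and 2954 ± 280 RPM (SD, n = 3; 0.10, limma, adjusted p = 0.791), and its value turned to -0.07 without S07. unconservative_3_394243 gave 613 ± 41.1 and 538 ± 74.6 RPM (SD, n = 3; -0.19, limma, adjusted p = 0.596). Over all 211 tested predicted miRNAs besides the row, 3 rose and 3 fell, with a median difference of 0.05 (limma), while edgeR called 8 and DESeq2 19. Of all 454 tested miRNAs limma called 7.05%, edgeR 6.61% and DESeq2 11.7%.

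**Figure D3:**
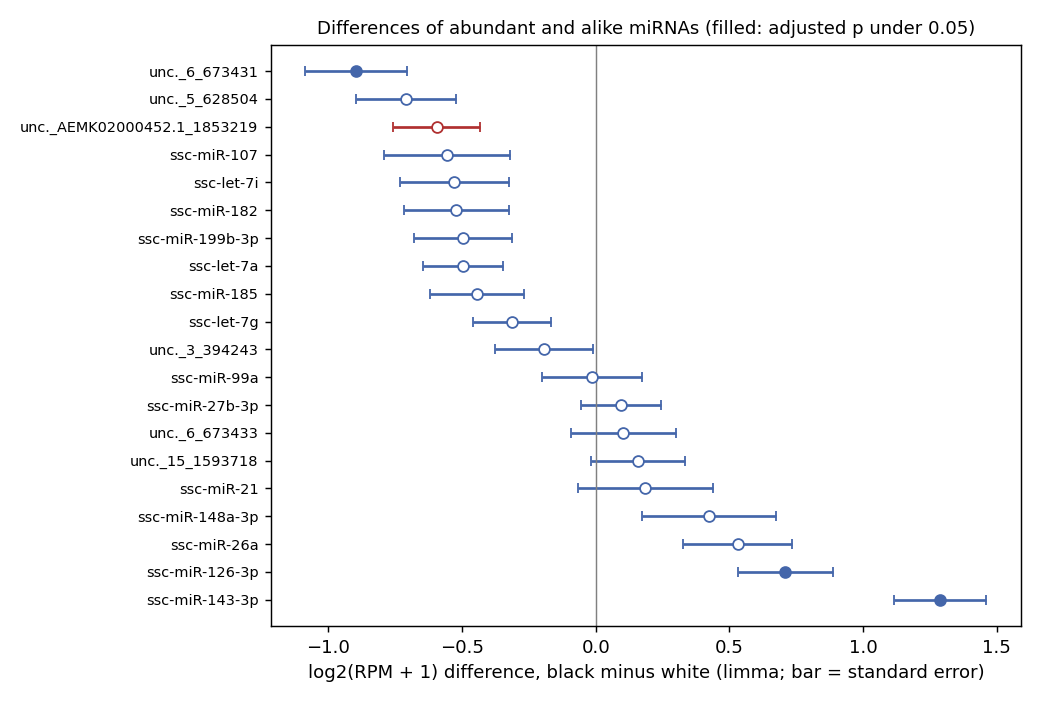
Difference in log2(RPM + 1), black minus white skin, for the predicted miRNA (red), the other abundant named and predicted miRNAs and the named miRNAs with the most similar pattern. Bars are limma's standard errors, and filled points mark an adjusted p under 0.05. The predicted miRNA lies at -0.59, between unconservative_5_628504 at -0.71 and ssc-miR-107.

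The miRNAs whose pattern over the 6 libraries was most like that of the row were sought by the root mean square difference of log2(RPM + 1), after each row's own mean was subtracted. This likeness is a description over 6 libraries that share their 2 groups and their scaling. The nearest of the 453 other tested miRNAs was ssc-let-7a, at a distance of 0.0738, where the median miRNA stood at 0.487. ssc-let-7a measured 30039, 29141 and 25675 RPM in S02, S06 and S07, against 19293, 21754 and 19097 RPM in S03, S04 and S05. Its order of the 6 libraries, from S02 down to S05, was that of the predicted miRNA. In each library it stood at 20.03 to 22.86% of the predicted miRNA's level, a range of 1.14-fold. It did not pass the test (-0.50, limma, adjusted p = 0.0804). Its value is uncertain so far as reads of near-identical let-7 miRNAs were split among them.

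The next nearest named miRNAs were ssc-miR-182, known from epithelial and sensory cells (distance 0.102), ssc-miR-107 (0.112), ssc-miR-185 (0.136) and ssc-miR-199b-3p, a mesenchymal miRNA (0.139), whose values the table repeats under ssc-miR-199a-3p. None of these passed the test (limma, adjusted p = 0.138, 0.176, 0.154 and 0.134). ssc-miR-182 measured 7435, 8089 and 5596 RPM in S02, S06 and S07, against 4201, 5689 and 4763 RPM in S03, S04 and S05, or 4.82 to 5.70% of the predicted miRNA's level. Here S04 was just above S07, so the groups overlapped. The nearest predicted miRNAs were unconservative_9_1052986 (0.0973), unconservative_5_628504 (0.131), unconservative_6_673431 (0.189), unconservative_14_1551886 (0.196) and unconservative_1_146142 (0.207), whose values the table repeats under unconservative_1_146240. Of these the first and the last 2 averaged 2.59, 1.72 and 1.13 RPM, where the pseudocount of 1 flattens a pattern. unconservative_6_673431 moved more widely than the row, from 6.18% of its level in S03 to 9.39% in S06.

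**Figure D4:**
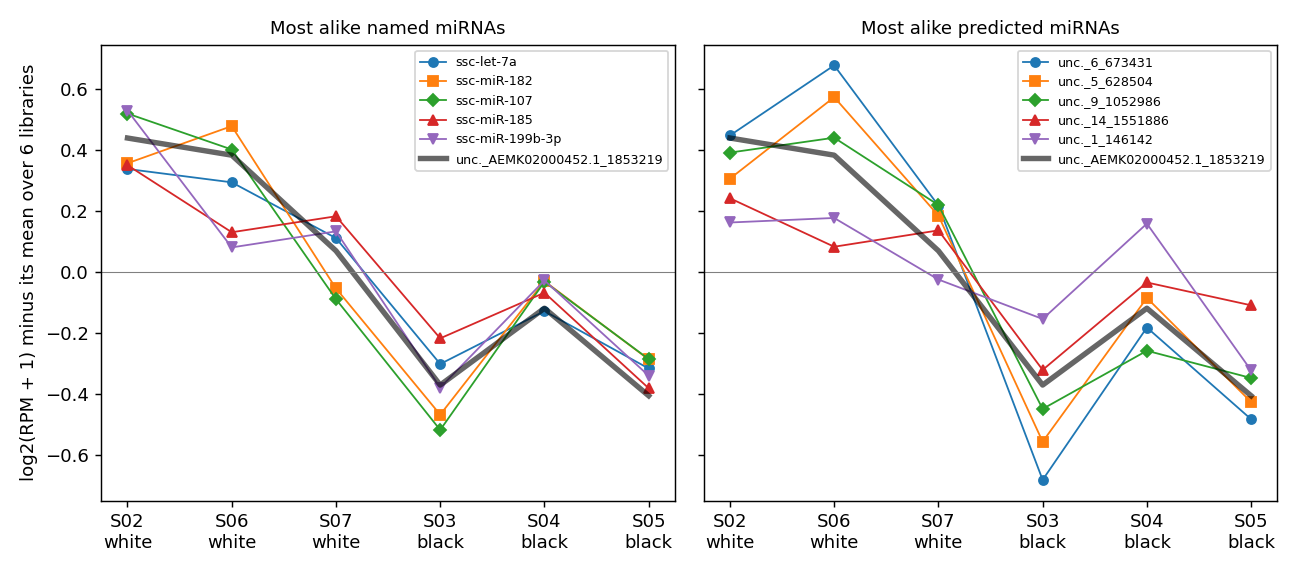
Patterns of the miRNAs most like the predicted miRNA (thick grey line), as log2(RPM + 1) minus the miRNA's own mean over 6 libraries, for the 5 nearest named (left) and 5 nearest predicted miRNAs (right). Lines only join the points of 1 miRNA, as libraries have no order. ssc-let-7a follows the thick line most closely, at a distance of 0.0738.

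Markers of the cell types in skin were set beside the row. Skin holds keratinocytes, fibroblasts, vessels, blood cells and pigment cells, and in bulk tissue fewer cells of a type and less RNA per cell cannot be told apart. Of 10 names in the epithelial and keratinocyte list 5 matched a row. miR-203, miR-200a, miR-200b, miR-200c and miR-141 matched none by name, and whether predicted rows hold them was not tested, so the list covers its cells only in part. Of all 454 tested miRNAs limma called 7.05%, edgeR 6.61% and DESeq2 11.7%. None of the 5 matched rows was called by these tools (1 at an unadjusted p under 0.05 in limma), and 4 had values below 0, with a median difference of -0.31. Their summed level was 23475 to 34650 RPM in white skin and 18739 to 25754 RPM in black, with overlap. Its most abundant members were ssc-miR-205, a miRNA of basal keratinocytes (-0.47, limma, adjusted p = 0.204), and ssc-miR-182 (-0.52, 0.138). No matched row was at 0.

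The predicted miRNA stood at 4.53, 4.16 and 4.94 times the summed epithelial list in S02, S06 and S07, and at 4.57, 3.96 and 3.69 times in S03, S04 and S05. These ratios rest on the 5 matched rows and would differ if predicted rows belonged to the list. On this footing the groups overlapped, and the difference in log2 ratio was -0.16 (two-sided exact permutation p = 0.3). This reference was chosen after the data were seen and holds ssc-miR-182, one of the miRNAs picked for its likeness to the row, so a small difference was favoured by the choice. Relative to the geometric mean of the 9 others of the 10 most abundant, the log2 ratio averaged 1.44 ± 0.26 in white skin and 0.58 ± 0.16 in black (SD, n = 3), a difference of -0.86 with no overlap (exact permutation p = 0.1, the smallest possible). This reference is not neutral either. Its 9 rows hold ssc-miR-143-3p (1.29) and ssc-miR-126-3p (0.71), both called higher in black skin by limma, and 3 rows with lower means there. A wider difference than the -0.59 of the row alone was thereby favoured. The part of the epithelial miRNAs in the lower level of the row was not tested.

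The other marker lists are set beside the shares called of all 454 tested miRNAs. These were 7.05% with limma, 6.61% with edgeR, 6.83% with limma-voom and 11.7% with DESeq2. In lists of 3 to 12 rows, 0 or 1 call cannot be told from such shares. The vascular wall list summed to 44365 to 58091 RPM in white skin and 96227 to 119952 RPM in black, with 3 of 6 rows higher in black skin by limma, 2 called by DESeq2 and 1 by edgeR and by limma-voom, and a median of 0.65. Without overlap, the order of its sums is the opposite of that of the predicted miRNA. The fibroblast and mesenchymal list summed to 133775 to 205103 RPM and 145725 to 200985 RPM, with 1 of 12 rows lower and a median of 0.04, and these sums hold the values of ssc-miR-199b-3p and the same values again as ssc-miR-199a-3p. The melanocyte-enriched list summed to 3308 to 5157 RPM and 2908 to 4611 RPM, with overlap, with 1 of 5 rows lower, ssc-miR-221-3p, and a median of -0.37. In this list DESeq2 called 2 rows and edgeR 1, and 3 had an unadjusted p under 0.05 in limma. Of these 5 rows 3 had values below 0, ssc-miR-221-3p, ssc-miR-222 (-0.73, limma, adjusted p = 0.152) and ssc-miR-221-5p (-0.37, 0.310). The others, ssc-miR-204 (0.82, limma, adjusted p = 0.0804) and ssc-miR-146a-5p (0.19, 0.744), had higher means in black skin without passing the test. miR-211, the defining member of that list, matched no row by name. Of the leukocyte rows 1 of 4 was higher. None of 3 erythroid and 5 striated muscle rows was called by limma, with 1 in each list at an unadjusted p under 0.05. DESeq2 called 1 in each list, and 1 striated muscle row was called by edgeR and by limma without S02. The erythroid sums, 1723 to 4914 RPM in white skin and 994 to 4298 RPM in black, overlapped. Whether any of these cell types bears on the level of the row was not tested.

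Other rows of the same scaffold did not share its level or its pattern. The identifiers of 31 other predicted miRNAs name AEMK02000452.1, and 16 of them had enough reads to be tested. Together the 31 summed to 978, 378 and 304 RPM in S02, S06 and S07, against 670, 551 and 562 RPM in S03, S04 and S05. Of the reads of all listed rows that name the scaffold, the predicted miRNA held 99.2 to 99.7%. Of all 454 tested miRNAs limma called 7.05%, edgeR 6.61% and DESeq2 11.7%. Of the 16 tested rows of the scaffold, none was called by these tools (2 at an unadjusted p under 0.05 in limma). Their median difference was -0.25, and 0.38 without S02. A white library, S02, was the highest for 13 of these 16, and for 98 of all 454 tested miRNAs (21.6%). For 11 of the 16 it stood over 1.5 times above the next library, which was not so for the predicted miRNA, at 149953 RPM in S02 against 144226 RPM in S06.

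Of the scaffold's other rows, 24 have final numbers from 1849924 to 1849983, and the predicted miRNA is not in that run. The most abundant of them, unconservative_AEMK02000452.1_1849951, measured 451, 260 and 180 RPM in S02, S06 and S07, against 479, 344 and 380 RPM in S03, S04 and S05 (0.52, limma, adjusted p = 0.356). unconservative_AEMK02000452.1_1849924 gave 157 RPM in S02 and 24.9 to 46.0 RPM in the other libraries, and unconservative_AEMK02000452.1_1849926 gave 127 RPM in S02 and 14.3 to 50.05 RPM elsewhere. unconservative_AEMK02000452.1_1849935 was at 42.1 RPM in S02 and 4.13 to 10.8 RPM elsewhere. unconservative_AEMK02000452.1_1855454 was not highest in S02, though S02 was its highest white library. It measured 46.3, 31.0 and 29.1 RPM in S02, S06 and S07, against 69.5, 48.4 and 49.5 RPM in S03, S04 and S05, the opposite order of groups to the predicted miRNA (0.65, limma, adjusted p = 0.188). No other row of the table had the same reads as the predicted miRNA in every library.

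**Figure D5:**
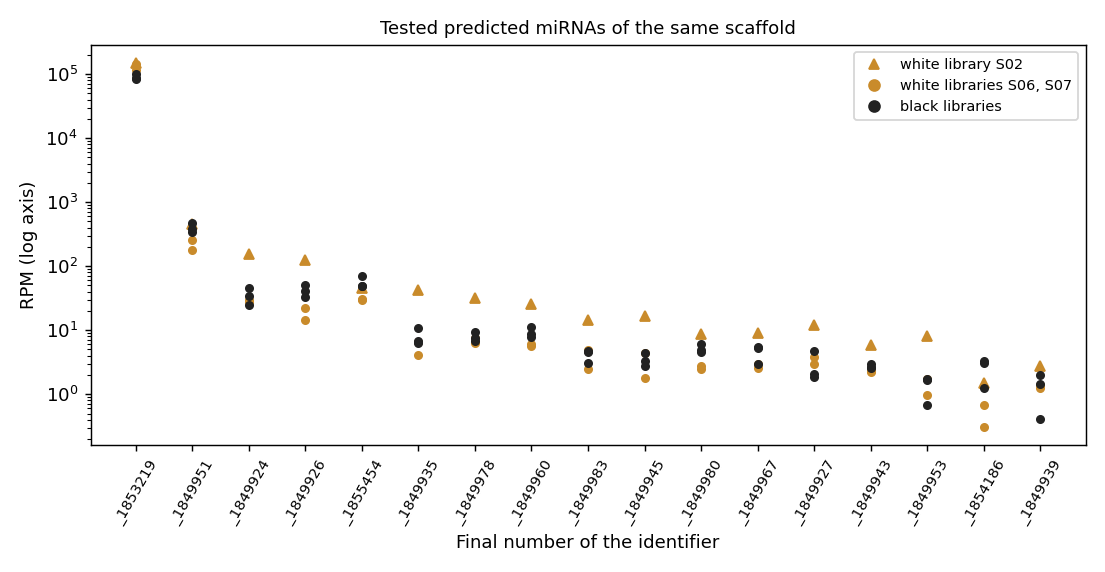
RPM on a log axis of the predicted miRNA (leftmost) and the 16 other tested rows whose identifiers name the same scaffold, with 1 point per library and triangles for the white library S02. The predicted miRNA lies at 83535 RPM or more in every library, the other rows at or below 479 RPM, and S02 is the highest library for 13 of the 16.

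Because RPM are shares of a fixed total, the level of so abundant a row enters the values of every other miRNA. Leaving it out of the total raised the log2 value of all others by 0.21 ± 0.03 in white skin and 0.14 ± 0.02 in black (SD, n = 3), which moved their differences by -0.08. Of the 32 calls 29 were then kept. ssc-miR-126-3p (0.63, limma, adjusted p = 0.0632), ssc-miR-126-5p (0.82, 0.0598) and ssc-miR-24-2-5p (0.79, 0.0623) lost their calls, and unconservative_5_628504 gained one (-0.79, adjusted p = 0.0442). The calls were 18 higher and 14 lower with the row in the total and 15 higher and 15 lower without it. On the recovered reads they were 13 higher and 17 lower with edgeR, 15 higher and 16 lower with limma-voom and 34 higher and 19 lower with DESeq2. Scaled in this way, the difference of the row itself was -0.67 (limma, adjusted p = 0.0528).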

How the data were processed

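Small RNA of skin was sequenced in 6 libraries, and skin colour, as labelled, set the groups. Nothing pairs them. The authors deposited 1 table in RPM. That unit follows from the column sums of 1000000. The submitters' processing notes name Bowtie (no version) and Sscrofa11.1, without saying how each was used. How reads were counted, miRNAs predicted and rows filtered is not given in the sources used here. All values were whole multiples of 1 read (tolerance 0.001), so reads were recovered, with 1 read worth 0.0984 to 0.155 RPM. All 6 columns were used.

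The main test was limma 3.58.1 (R 4.3.3) on log2(RPM + 1) with an intensity trend, adjusted by Benjamini-Hochberg, at a threshold of 0.05. The fixed design named edgeR for raw counts only. The fit ran on the 454 of 898 miRNAs kept by filterByExpr (edgeR 4.0.16, minimum count 10, minimum total 15). Alternatives were edgeR, DESeq2 1.42.0 and limma-voom on recovered reads, scalings, filters, pseudocounts of 0.1 and 10, and leaving out each library. The limma fit was tested on simulated data with TMM factors, not with the scaling to listed reads of the main test. Single values were compared by two-sided exact permutation. Binomial intervals are exact, at 95%, and hold counting error alone, because PCR copies are not independent molecules.

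The row, the lists and the rules were chosen with earlier results of these data known. Named were the 10 most abundant miRNAs, the 5 most abundant other predicted ones, the 5 most abundant others of the scaffold, the 5 predicted and 5 named miRNAs nearest in pattern, and the 2 most abundant members of each marker list. ssc-miR-126-5p, ssc-miR-24-2-5p, ssc-miR-204 and rows that repeat another's values were named after their values were seen. Marker names were matched without arm or copy number.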

Additional observations from a re-analysis of the deposited data

How the results depend on the processing

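The lower level of unconservative_AEMK02000452.1_1853219 in black skin kept its direction in all 13 other settings, from -0.68 to -0.58, and passed in 4 of them: limma-voom (-0.60), TMM factors (-0.60), no filter (-0.59) and 10 RPM in 3 libraries (-0.59). Without 1 library it ranged from -0.71 to -0.52. The count of called miRNAs, 32, became 53 with DESeq2 and 19 with limma without an intensity trend, and 7 (without S05 or S06) to 41 (without S02) with 1 library left out, with 9 without S03, 18 without S04 and 14 without S07. The cause was not tested. No paired analysis was run, because the labels name no animal and give no pairs. With 1 library left out, the share of all reads differed by -5.67 to -3.98 points, that of predicted reads by -4.18 to -2.64, that of other predicted reads by -0.77 to -0.48, and the log2 ratio to ssc-miR-21 by -1.16 to -0.56. There, the exact test used, whose two-sided p is 2 times the smaller tail, cannot go under 0.2 with 2 against 3 libraries. These tests therefore say nothing on stability.

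Some small differences that had not passed the test turned in sign with 1 library left out, within -0.16 to 0.11 for ssc-miR-99a, -0.067 to 0.25 for unconservative_6_673433, -0.12 to 0.34 for ssc-miR-199b-5p, -0.32 to 0.12 for ssc-miR-155-5p, -0.74 to 0.25 for ssc-miR-1 and -0.023 to 0.47 for ssc-miR-146a-5p. The same held for the scaffold rows ending in 1849924 (-0.97 to 0.26), 1849926 (-0.37 to 1.16) and 1849935 (-1.03 to 0.50). unconservative_AEMK02000452.1_1849926 was also at -0.36 with edgeR and -0.38 with DESeq2, against 0.24 in limma, and ssc-miR-199b-5p at -0.0040 when scaled to the ssc- reads.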
